A study of Mus musculus with 2 samples.

Results

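The axon guidance ligands and receptors are the secreted and membrane proteins that steer growing axons, and the same families pattern vessels, muscle and skeletal tissue in the limb. The genes were chosen by symbol: all protein-coding genes named as Eph receptors (Epha, Ephb), ephrins (Efna, Efnb), semaphorins (Sema), plexins (Plxn), Slits, Robos, netrins (Ntn) or Unc5 receptors. The rule gave 65 genes of the 43346 Ensembl genes in the tables, 21474 of which are protein-coding. Ntn3 is not among the 65. No measured value entered the rule, although the genes were chosen with earlier results of these data known.

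Total RNA sequencing was run on limbs of B6NCrl mouse embryos at embryonic day 14.5 in 2 libraries, labelled biological replicates 1 and 2. The 4 limbs of a pup made up each sample, the collection days differed, and 10 ng of RNA above 200 nt, with spike-in RNAs, went into each library. Sex is given as mixed or pooled for both, and donor, pup and pregnancy numbers are identical. Both libraries belong to 1 group with no treatment, mutation or control, so levels are described and no conditions are compared. Each SD over n = 2 therefore measures only the spread between these 2 samples. Fewer cells of a type and less RNA per cell cannot be told apart in whole limbs.

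Genes held 32384779 expected counts (reads assigned to a gene by estimation) in replicate 1 and 31170323 in replicate 2. The libraries went against the label on sex. The Y-linked genes Ddx3y, Eif2s3y, Kdm5d and Uty lay between 13.98 and 37.58 TPM (a transcript level per length, scaled to a common total) in replicate 1 and at 0 in replicate 2, and Xist had 0.03 TPM in replicate 1 against 78.99 TPM in replicate 2. Sex and replicate cannot be told apart here. The tissue label matched its defining markers: all 7 limb mesenchyme genes were above 1 TPM in both libraries, and Prrx1 reached 86.98 TPM in replicate 1 against 101.57 TPM in replicate 2. The summed level of 6 muscle markers was 2120 TPM in replicate 1 and 1468 TPM in replicate 2, that of 5 red blood cell markers 25915 and 17221 TPM, and that of the limb mesenchyme markers 289 and 362 TPM in the same order.

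Ephrins are membrane-bound ligands that signal to Eph receptor tyrosine kinases on touching cells, and signal back into the cell that bears them. Semaphorins act through plexins, the secreted class 3 with neuropilins as co-receptors, whereas Slits act through Robo receptors and netrins through Dcc, neogenin and Unc5 receptors. In the limb these cues route motor and sensory axons, whose cell bodies lie outside it in the spinal cord and dorsal root ganglia, and several also act in vessel growth. Whole limb thus holds the tissue through which these axons grow, with their distal parts, glia, vessels, muscle and skeleton.

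Most of the genes were present in the limb at moderate levels. In both libraries 53 of 65 genes (81.5%) were detected, which required 1 TPM or more, beside 61.4% of all protein-coding genes. The median level over the 65 genes was 9.24 TPM in replicate 1 and 9.79 TPM in replicate 2, beside 4.77 and 4.98 TPM over all protein-coding genes. By mean level, 24 genes lay at 20 TPM or above, 19 between 5 and 20 TPM, 14 between 1 and 5 TPM and 8 below 1 TPM. The shares were 36.9% at 20 TPM or above and 12.3% below 1 TPM, beside 29.4% and 37.5% of protein-coding genes. The genes below 1 TPM were Epha6, Epha10, Sema3g, Sema7a, Plxnb3, Slit1, Robo3 and Ntn5, and none was listed at 0 in both libraries. Ntn4, Sema4f, Unc5a and Unc5d had means of 1 TPM or more but fell below 1 TPM in 1 library. Together the 65 genes held 0.325% of gene counts in replicate 1 and 0.362% in replicate 2.

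**Figure D1:**
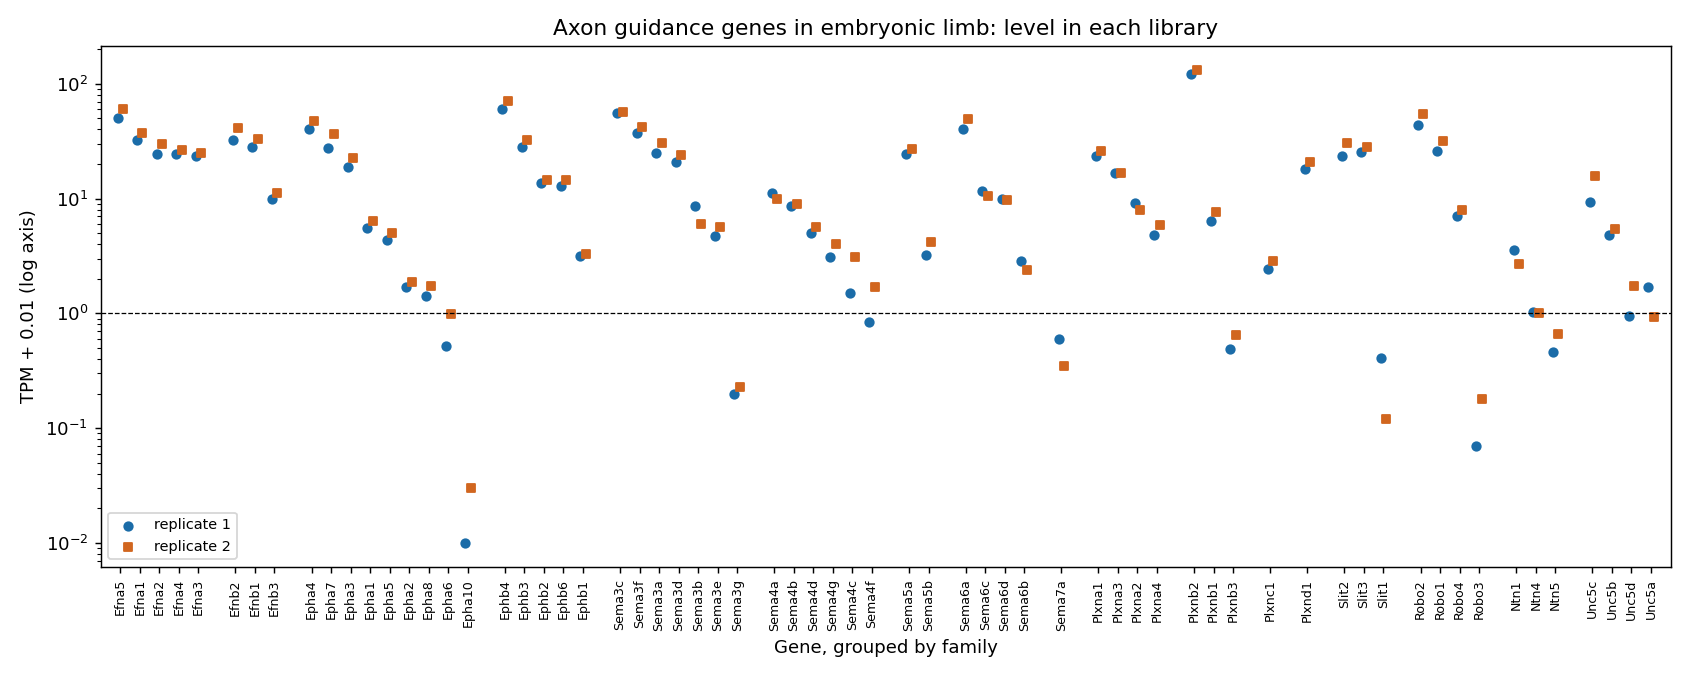
Level of each of the 65 genes, as TPM + 0.01 on a log axis, with replicate 1 as blue circles on the left and replicate 2 as orange squares on the right of each gene; genes are grouped by family and ordered by mean level, and the dashed line marks 1 TPM. Plxnb2 stands above the other genes in both libraries, and Epha10, Robo3, Sema3g and Slit1 lie lowest.

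Paired transcript sequences of 4 genes are shown first, because the tables assign a part of the level of these genes to transcripts that do not follow the coding splice. The reference annotation (GENCODE M21, GRCm38) types Robo2-209 and Slit2-207 as retained introns, and Slit3-204 and Epha7-208 as processed transcripts without a coding frame. Each shares exon bases with the coding transcript named and then runs on into its intron. In each line 30 shared bases are in lower case and the next 30 bases, where the transcripts part, are in capitals.
Robo2-209: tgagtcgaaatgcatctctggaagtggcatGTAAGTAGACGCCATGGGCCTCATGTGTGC
Robo2-202: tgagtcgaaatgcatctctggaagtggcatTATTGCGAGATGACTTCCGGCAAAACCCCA
Slit2-207: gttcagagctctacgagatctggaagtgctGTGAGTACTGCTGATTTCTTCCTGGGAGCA
Slit2-202: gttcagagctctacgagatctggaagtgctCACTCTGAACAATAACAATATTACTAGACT
Slit3-204: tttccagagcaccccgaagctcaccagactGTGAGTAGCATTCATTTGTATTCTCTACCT
Slit3-201: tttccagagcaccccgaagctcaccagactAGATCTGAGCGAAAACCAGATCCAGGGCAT
Epha7-208: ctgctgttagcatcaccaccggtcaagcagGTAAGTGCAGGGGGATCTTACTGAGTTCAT
Epha7-201: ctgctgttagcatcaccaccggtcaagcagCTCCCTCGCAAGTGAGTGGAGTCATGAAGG
The introns entered are chr16:74046938-74352550 on the minus strand for Robo2, and chr5:48182318-48186495, chr11:35234909-35508222 and chr4:28871997-28935703 on the plus strand for Slit2, Slit3 and Epha7. All capitals of the coding transcripts are coding exon sequence. Lengths in these models equal the deposited ones for the Robo2, Slit3 and Epha7 pairs, whereas Slit2-202 has 7758 nt here and 6854 nt in the deposited tables, and Slit2-207 3265 and 3264 nt. The first 2 intron bases are GT in each of the 4, the letters at which most introns begin, and in each of the 11 genes for which such a pair was read.

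Ephrin-A ligands, which are held to the membrane by a lipid anchor, were all detected and lay within a narrow range. Efna5, a repellent for axons that carry EphA receptors, had 49.85 TPM in replicate 1 and 60.30 TPM in replicate 2 (55.1 ± 7.39 TPM, SD, n = 2; gene at chr17:62604184-62881317). Efna1, also known from vessels, had 32.43 and 36.91 TPM in replicates 1 and 2 (34.7 ± 3.17 TPM). Both stood above the other ephrin-A genes in each library, and their own values did not overlap. Efna2 had 24.23 and 29.62 TPM in replicates 1 and 2, Efna4 24.62 and 26.24 TPM, and Efna3 23.25 and 24.89 TPM. Efna3 was the lowest of these 3 in each library, although its range overlapped that of Efna4, and the order of Efna2 and Efna4 differed between libraries.

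Efna1, Efna3 and Efna4 are neighbours on chromosome 3. Efna3 and Efna4 lie 10424 bases apart, with means of 24.1 and 25.4 TPM, and Efna1 and Efna3 lie 32756 bases apart.

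Ephrin-B ligands span the membrane and signal through their own tails. Efnb2, the arterial member and partner of EphB4, had 32.05 TPM in replicate 1 and 40.97 TPM in replicate 2 (36.5 ± 6.31 TPM, SD, n = 2). Efnb1, an X-linked gene needed for normal skeletal patterning, had 28.34 and 32.70 TPM (30.5 ± 3.08 TPM). The ranges of these 2 genes overlapped between libraries. Efnb3 was lower in both, at 9.80 and 11.19 TPM. Summed, ephrin-B genes held 70.19 TPM in replicate 1 and 84.86 TPM in replicate 2, against 154.38 and 177.96 TPM for ephrin-A genes. The log2 ratio of ephrin-B over ephrin-A was -1.10 ± 0.05 (SD, n = 2), with the same sign in both libraries; an exact sign-flip test over 2 libraries cannot go below p = 0.5, so no test is given for this or any later ratio.

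Among EphA receptors, Epha4, which guides motor axons to the dorsal limb, had the highest gene total. It had 40.32 TPM in replicate 1 and 47.44 TPM in replicate 2 (43.9 ± 5.03 TPM, SD, n = 2; gene at chr1:77367185-77515088). Epha7 had 27.54 and 36.81 TPM (32.2 ± 6.55 TPM), and Epha3, a receptor for ephrin-A ligands, had 18.75 and 22.34 TPM (20.5 ± 2.54 TPM). The gene totals of these 3 stood in the same order in both libraries with no overlap. Over protein-coding transcripts alone the order did not hold: Epha4 had 14.56 and 29.94 TPM in replicates 1 and 2, Epha3 18.75 and 22.34 TPM and Epha7 16.34 and 20.92 TPM. These Epha4 values rest on an uncertain split between transcripts, described below. Epha1 had 5.55 and 6.37 TPM, Epha5 4.33 and 5.02 TPM, Epha2, best known from epithelia, 1.67 and 1.88 TPM, and Epha8 1.41 and 1.73 TPM. Epha6 lay at 0.51 and 0.98 TPM, and Epha10, whose kinase domain is regarded as inactive, at 0 and 0.02 TPM. The family thus ranged from 3 genes near or above 20 TPM down to a gene with 0 counts in replicate 1 and 2 in replicate 2.

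EphB receptors were led by Ephb4, the venous receptor for ephrin-B2. It had 60.23 TPM in replicate 1 and 70.95 TPM in replicate 2 (65.6 ± 7.58 TPM, SD, n = 2; gene at chr5:137350109-137378669), the second highest mean of all 65 genes. Ephb3 had 27.87 and 32.32 TPM (30.1 ± 3.15 TPM). Ephb2, which with Ephb3 acts in axon pathfinding, had 13.61 and 14.62 TPM, and Ephb6, a receptor without kinase activity, 12.94 and 14.43 TPM. Ephb2 and Ephb6 overlapped, whereas Ephb1 was lower than the other 4 at 3.13 and 3.25 TPM. The log2 ratio of summed EphB over EphA was 0.19 ± 0.06 (SD, n = 2), from 117.78 and 135.57 TPM for EphB against 100.08 and 122.59 TPM for EphA in replicates 1 and 2; without the leading gene of each family it turned to -0.14, and over protein-coding transcripts alone it was 0.75. The 8 ephrins together held 224.57 and 262.82 TPM in replicates 1 and 2, against 217.86 and 258.16 TPM for the 14 Eph receptors. Their log2 ratio was 0.03 ± 0.01, and on expected counts, which are not corrected for gene length, it turned to -0.58.

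Endothelial markers were alike in both libraries, with summed levels of 149 TPM in replicate 1 and 150 TPM in replicate 2 over 6 genes, all detected. Their part in the levels of Efnb2, Ephb4, Plxnd1 and Robo4 was not tested.

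**Figure D2:**
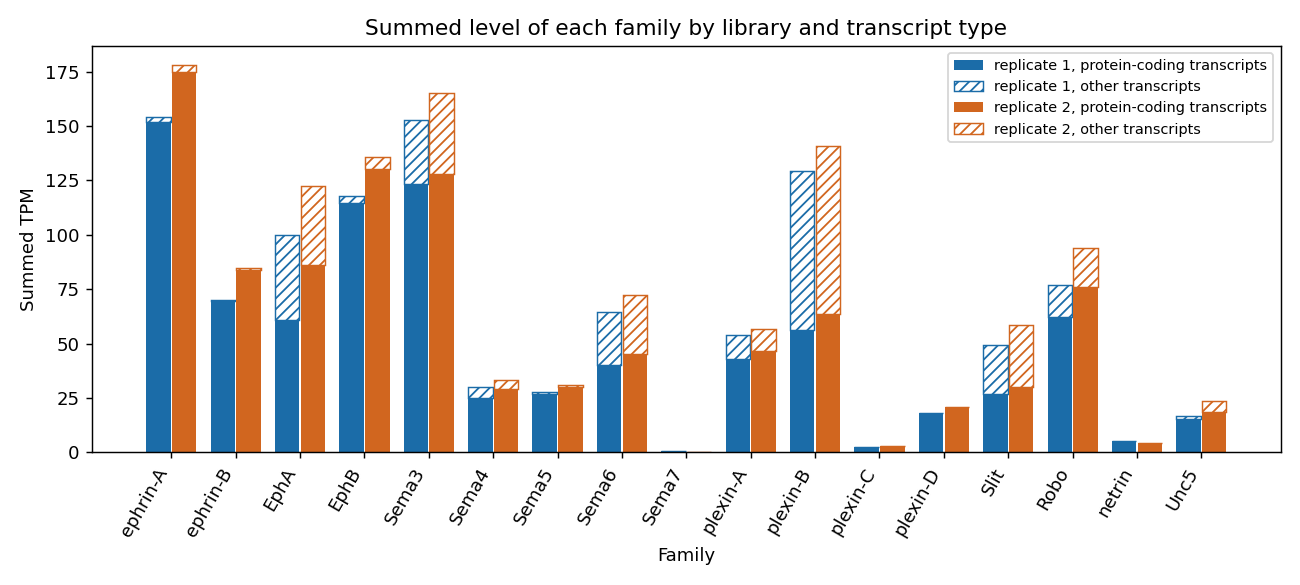
Summed TPM of each of the 17 families in replicate 1 (blue, left) and replicate 2 (orange, right); the filled part of a bar is the sum over protein-coding transcripts and the hatched part all other transcripts of the same genes. Ephrin-A, Sema3, plexin-B, EphB and EphA have the highest sums, and the hatched part is widest in plexin-B.

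Class 3 semaphorins, which are secreted, were the semaphorin class of highest summed level. Sema3c, a ligand that acts through both neuropilins, had 55.71 TPM in replicate 1 and 56.88 TPM in replicate 2 (56.3 ± 0.827 TPM, SD, n = 2). Sema3f, which repels axons that carry neuropilin-2, had 37.59 and 42.24 TPM (39.9 ± 3.29 TPM). Sema3a, which repels axons that carry neuropilin-1, had 25.17 and 30.36 TPM (27.8 ± 3.67 TPM; gene at chr5:13125414-13602565). Sema3d followed at 20.85 and 23.99 TPM (22.4 ± 2.22 TPM). By gene total, none of the 6 pairs of neighbours in the order of the 7 class 3 genes overlapped between libraries. Over protein-coding transcripts alone Sema3f, at 29.75 and 30.38 TPM, overlapped Sema3a, at 25.17 and 30.36 TPM, and Sema3c had 37.35 and 33.59 TPM. Below Sema3d in gene total, Sema3b had 8.54 and 5.94 TPM, Sema3e, a direct ligand of plexin-D1, 4.72 and 5.64 TPM, and Sema3g 0.19 and 0.22 TPM.

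The membrane-bound semaphorins were led in gene total by Sema6a, a class 6 ligand of plexin-A2 and plexin-A4. It had 39.97 TPM in replicate 1 and 49.49 TPM in replicate 2 (44.7 ± 6.73 TPM, SD, n = 2). Sema5a, a class 5 protein with thrombospondin repeats, had 24.64 and 26.81 TPM (25.7 ± 1.53 TPM), against 3.23 and 4.16 TPM for Sema5b. Sema6c had 11.62 and 10.54 TPM, Sema6d, a ligand of plexin-A1, 9.93 and 9.79 TPM, and Sema6b 2.84 and 2.38 TPM. By gene total, the order Sema6a, Sema6c, Sema6d, Sema6b held in both libraries without overlap. Over protein-coding transcripts alone Sema6c, at 5.44 and 5.16 TPM, lay below Sema6d, at 8.74 and 8.63 TPM. Sema6a, at 22.93 and 28.82 TPM over these transcripts, overlapped Sema5a, at 24.64 and 26.81 TPM.

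Class 4 semaphorins, membrane-bound ligands of the B plexins among others, were lower. Sema4a had 11.08 TPM in replicate 1 and 9.99 TPM in replicate 2, and Sema4b 8.68 and 8.93 TPM. Sema4d, the ligand of plexin-B1, had 5.01 and 5.66 TPM, and Sema4g 3.08 and 4.04 TPM. Sema4c and Sema4f were below these at means of 2.29 and 1.26 TPM, and their ranges overlapped. Sema7a, the lipid-anchored ligand of plexin-C1, had 0.59 and 0.34 TPM. The summed class 3 genes held 152.77 TPM in replicate 1 and 165.27 TPM in replicate 2, against 123.00 and 136.88 TPM for classes 4 to 7. The log2 ratio was 0.29 ± 0.03 (SD, n = 2), 0.030 on expected counts and 1.07 without the leading gene of each class.

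Plxnb2, a receptor for class 4 semaphorins, had the highest gene total of the 65 genes. It had 122.57 TPM in replicate 1 and 132.79 TPM in replicate 2 (128 ± 7.23 TPM, SD, n = 2; gene at chr15:89155549-89180788), which put it at percentile 95.0 of all protein-coding genes. That rank held for gene totals and not over protein-coding transcripts alone, where Plxnb2 had a mean of 53.1 TPM, Ephb4 65.5 TPM and Efna5 55.1 TPM. It held 94.4 ± 0.43% of the summed plexin-B level. Plxnb1 had 6.31 and 7.62 TPM and Plxnb3 0.48 and 0.64 TPM in replicates 1 and 2. Of the A plexins, the signalling partners of neuropilins, Plxna1 had 23.55 and 26.13 TPM (24.8 ± 1.82 TPM), the X-linked Plxna3 16.53 and 16.77 TPM, Plxna2 9.11 and 7.86 TPM and Plxna4 4.81 and 5.85 TPM. These 4 gene totals did not overlap, whereas over protein-coding transcripts alone Plxna3, at 6.39 and 7.89 TPM, overlapped Plxna2, at 8.03 and 6.94 TPM. Plxnd1, an endothelial receptor of Sema3e, had 17.96 and 20.69 TPM, and Plxnc1 2.42 and 2.85 TPM.

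The balance of the A and B plexins rested on Plxnb2. Summed A plexins held 54.0 TPM in replicate 1 and 56.61 TPM in replicate 2, against 129.36 and 141.05 TPM for B plexins, a log2 ratio of -1.29 ± 0.04 (SD, n = 2). Without the leading gene of each family the ratio turned to 2.01, and over protein-coding transcripts alone it was -0.42. On expected counts it was -0.0064. The co-receptors Nrp1 and Nrp2 were both detected, Nrp1 at 39.64 and 36.91 TPM and Nrp2 at 23.15 and 26.0 TPM in replicates 1 and 2. Their log2 ratio, Nrp1 over Nrp2, was 0.64 ± 0.19.

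Slit ligands were represented by 2 of 3 genes. Slit2 had 23.66 TPM in replicate 1 and 30.37 TPM in replicate 2 (27.0 ± 4.74 TPM, SD, n = 2; gene at chr5:47983138-48307733), and Slit3 had 25.36 and 28.19 TPM (26.8 ± 2.00 TPM). By gene total, the order of Slit2 and Slit3 differed between the libraries. Over protein-coding transcripts alone Slit2, at 10.96 and 12.98 TPM in replicates 1 and 2, lay below Slit3, at 15.43 and 16.78 TPM. Slit1, known mainly from the nervous system, had 0.40 and 0.11 TPM. Of the receptors, Robo2 had 43.63 and 54.58 TPM (49.1 ± 7.74 TPM), Robo1 26.01 and 31.47 TPM (28.7 ± 3.86 TPM), and Robo4, an endothelial Robo, 7.08 and 7.89 TPM. Robo3, the receptor of commissural axons, had 0.06 and 0.17 TPM, although its annotated gene lies 553 bases from that of Robo4 on chromosome 9.

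Robo genes exceeded Slit genes in summed level in both libraries. The sums were 76.78 TPM in replicate 1 and 94.11 TPM in replicate 2 for Robo, against 49.42 and 58.67 TPM for Slit, a log2 ratio of 0.66 ± 0.03 (SD, n = 2) that was 1.28 over protein-coding transcripts alone. Robo1 over Robo2 was -0.77 ± 0.03 on the log2 scale of TPM. On expected counts this ratio turned to 0.082, from 4464 counts of Robo1 in replicate 1 and 5042 in replicate 2 against 4170 and 4819 counts of Robo2. Over protein-coding transcripts alone it was -0.19, from 26.01 and 31.47 TPM of Robo1 against 29.22 and 36.71 TPM of Robo2. Of that Robo2 level, 7.58 TPM in replicate 1 and 10.08 TPM in replicate 2 lay on the 535-nt Robo2-204, typed protein-coding. These came from 75.95 and 94.29 counts, and the ratio without this short transcript was not taken.

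The netrins Ntn1, Ntn4 and Ntn5 were low in these limbs, and Ntn3 was not analysed. Ntn1, which attracts axons through Dcc and repels them through Unc5 receptors, had 3.53 TPM in replicate 1 and 2.66 TPM in replicate 2 (3.10 ± 0.615 TPM, SD, n = 2). Ntn4 had 1.02 and 0.99 TPM, and Ntn5 0.45 and 0.65 TPM. Of the repellent receptors, Unc5c had 9.24 and 15.72 TPM (12.5 ± 4.58 TPM) and Unc5b, known from vessels, 4.78 and 5.39 TPM. Unc5d, at 0.94 and 1.71 TPM, and Unc5a, at 1.67 and 0.91 TPM, overlapped. Summed Unc5 genes held 16.63 and 23.73 TPM, against 5.00 and 4.30 TPM for netrins, a log2 ratio of 2.08 ± 0.51 that was 2.89 on expected counts. The netrin receptor Neo1 had 31.33 and 36.24 TPM, against 1.37 and 1.34 TPM for Dcc, a log2 ratio of 4.54 ± 0.17 that was 5.24 on expected counts.

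Co-receptors and other guidance molecules outside the rule were listed beside these genes. Of 19, 16 were detected in both libraries, with a median of means of 13.5 TPM. Gpc1, a proteoglycan that binds Slits, had 58.61 TPM in replicate 1 and 55.94 TPM in replicate 2, Boc, a membrane protein of the immunoglobulin superfamily, 46.25 and 55.87 TPM, and Flrt3, a ligand of Unc5 receptors, 36.53 and 43.03 TPM. Ntng2, Draxin and Dscam were the 3 below 1 TPM. Of 30 intracellular effectors, 28 were detected, with a median of means of 22.7 TPM. Cofilin Cfl1, which severs actin filaments, had 1621 and 1658 TPM, the small GTPase gene Rac1 306.9 and 315.75 TPM, and Dpysl2, a mediator of semaphorin signalling, 139.99 and 159.03 TPM; Ngef and Rnd1 were below 1 TPM.

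Markers of nerve cells were low beside these. Of 8 neuronal genes 5 were detected in both libraries, with summed levels of 20.39 TPM in replicate 1 and 21.97 TPM in replicate 2. Elavl3 stood at 0 and 0.01 TPM and Snap25 at 0.16 and 0.49 TPM, against 6.37 and 8.65 TPM for the neurofilament gene Nefl. Of 6 Schwann cell genes 5 were detected, with summed levels of 40.0 TPM in replicate 1 and 36.6 TPM in replicate 2. The part of axons, glia or any other cell type in the levels of the guidance genes was not tested.

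At the transcript level the guidance genes resembled protein-coding genes at large, with a few that stood out. A mean of at least 1 TPM was reached by 57 genes, of which 45 had 2 or more transcripts. The leading transcript, the one with the highest percent of its gene's TPM, was the same in both libraries in 39 of 45 genes (86.7%), beside 91% of protein-coding genes. It was typed protein-coding in both libraries in 40 of 45 (88.9%), beside 89.1%. Protein-coding transcripts held a median of 98.8% of a gene's TPM over the 57 genes and 98.6% over protein-coding genes, and less than 75% in 13 of 57 guidance genes (22.8%), beside 19.0%. The lowest shares were 41.6% in Plxnb2, 42.9% in Plxna3 and 44.3% in Slit2.

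The short transcript Plxnb2-205, typed as a processed transcript, led Plxnb2 in both libraries. It held 50.8% of the gene's TPM in replicate 1 and 51.0% in replicate 2, but 12.6% and 12.3% of its counts. In GENCODE M21 all of its 834 bases lie within exons of the coding transcript Plxnb2-202. The deposited tables give it 841 nt and Plxnb2-202 6377 nt, against 6497 nt in M21, so the overlap of the models that were quantified may differ. Plxnb2-202 itself had 48.29 and 56.35 TPM, with 82.9% and 86.4% of counts. In replicate 2 its estimate lay just above its deposited credibility interval of 47.0 to 55.8 TPM. Over protein-coding transcripts alone Plxnb2 stood at 53.1 ± 4.60 TPM (SD, n = 2).

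Slit3-204, shown above, likewise held 36.8% of the TPM of Slit3 in replicate 1 and 37.3% in replicate 2, but 4.04% and 4.16% of its counts, on a transcript of 459 nt. It has 299 bases outside the exons of Slit3-201. Robo2-209 held 29.5% and 28.2% of the TPM of Robo2, and 28.1% and 27.1% of its counts. With 3289 bases outside the exons of Robo2-202, it led the gene in both libraries, at 12.87 and 15.36 TPM against 11.38 and 15.30 TPM for Robo2-202. Slit2-207 held 36.3% and 35.4% of TPM and 24.9% of counts in both libraries, and Epha7-208 27.1% and 33.2% of TPM and 19.4% and 23.5% of counts. The share by TPM and by counts thus lay close together for the long Robo2-209 and far apart for the short Slit3-204 and Plxnb2-205. Intron reads of unspliced RNA, which total RNA can hold, were not separated from these transcripts.

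**Figure D3:**
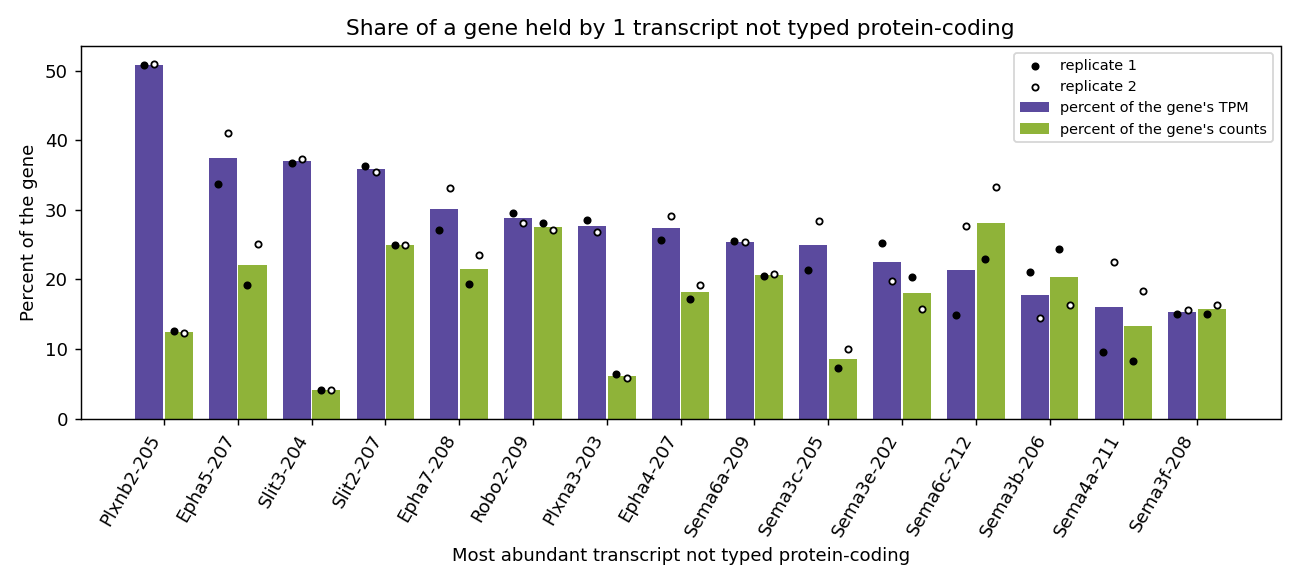
For 15 genes, the share of the gene held by its most abundant transcript not typed protein-coding, as percent of TPM (violet, left) and percent of expected counts (green, right); bars are means over the libraries, filled points replicate 1 and open points replicate 2. Plxnb2-205, Slit3-204 and Plxna3-203 hold a much larger share of TPM than of counts, whereas Robo2-209 holds like shares of both.

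Epha4 changed its leading transcript between the libraries. Epha4-205, typed as subject to nonsense-mediated decay, had 13.49 TPM in replicate 1 and 0.24 TPM in replicate 2, and the coding Epha4-201 had 8.45 and 24.97 TPM. These transcripts are 6315 and 6328 nt long. The deposited credibility interval of Epha4-205 ran from 2.36 to 18.6 TPM in replicate 1 and from 2.24 to 14.7 TPM in replicate 2, so the intervals of the libraries overlap. In replicate 2 both estimates lay outside their own intervals, that of Epha4-201 running from 9.50 to 22.3 TPM. The gene's total, 40.32 TPM in replicate 1 and 47.44 TPM in replicate 2, does not depend on the split between these transcripts. Its level over protein-coding transcripts alone does, and so does the ratio of EphB over EphA on those transcripts. The other 5 genes whose leading transcript differed were Ntn4, Sema4a, Sema4c, Sema6a and Sema6d.

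Start regions were described from RefSeq windows on GRCm38.p6, from 250 bases before to 50 bases after an annotated start, taken where that start lay within 1000 bases of the GENCODE gene start. Such a window was matched for 52 of the 65 genes. The windows of the guidance genes held a median of 23 CG dinucleotides, with 23 in the 42 genes detected in both libraries and 16 in the 10 others. Over 14147 protein-coding genes the median was 16, with 21 in detected genes and 4 in the others. The letters TATAAA, on either strand, were found in 2 of 52 windows (3.85%), those of Slit2 and Efnb2, beside 11.1% of all protein-coding windows and 6.86% of those of detected genes.

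The windows of Plxnb2, the gene of highest total, and Robo4, the window with the fewest CG, are shown for contrast, with each CG in capitals. Those of Slit2 and Efnb2 follow, with the TATAAA match, or its reverse complement TTTATA, in capitals. All read along the gene's strand.
Plxnb2: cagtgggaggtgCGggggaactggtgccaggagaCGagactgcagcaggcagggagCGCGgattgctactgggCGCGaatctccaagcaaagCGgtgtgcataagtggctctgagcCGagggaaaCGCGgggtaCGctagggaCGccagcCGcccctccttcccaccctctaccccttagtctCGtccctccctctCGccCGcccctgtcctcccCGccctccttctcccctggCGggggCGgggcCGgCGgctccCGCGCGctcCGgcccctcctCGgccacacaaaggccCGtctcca
Robo4: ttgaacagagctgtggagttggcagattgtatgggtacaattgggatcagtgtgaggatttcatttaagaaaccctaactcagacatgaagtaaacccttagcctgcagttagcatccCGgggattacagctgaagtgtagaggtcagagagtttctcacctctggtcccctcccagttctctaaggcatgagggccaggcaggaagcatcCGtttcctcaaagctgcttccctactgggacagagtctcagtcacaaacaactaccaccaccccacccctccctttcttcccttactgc
Slit2: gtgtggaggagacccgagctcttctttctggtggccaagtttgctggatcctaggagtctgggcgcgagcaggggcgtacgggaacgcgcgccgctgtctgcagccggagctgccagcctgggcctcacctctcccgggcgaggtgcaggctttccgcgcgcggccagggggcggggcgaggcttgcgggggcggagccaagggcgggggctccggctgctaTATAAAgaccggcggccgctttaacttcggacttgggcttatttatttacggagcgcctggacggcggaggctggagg
Efnb2: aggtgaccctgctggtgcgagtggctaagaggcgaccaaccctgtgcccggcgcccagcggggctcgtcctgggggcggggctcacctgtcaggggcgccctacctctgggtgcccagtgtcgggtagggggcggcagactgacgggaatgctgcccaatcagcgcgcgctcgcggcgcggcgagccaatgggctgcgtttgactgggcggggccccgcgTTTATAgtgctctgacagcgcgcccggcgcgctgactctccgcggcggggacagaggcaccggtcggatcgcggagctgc
They are chr15:89180739-89181038 (minus strand), chr9:37401722-37402021 (plus strand), chr5:47982905-47983204 (plus strand) and chr8:8661193-8661492 (minus strand). Plxnb2 has 27 CG and Robo4 has 2, in genes at 128 and 7.49 TPM. The window with the most CG, 56, is that of Epha8, a gene at 1.57 TPM. Whether CG number goes with level was not tested. The match begins 28 bases before the start in Slit2 and 30 bases before it in Efnb2. A match is a string of letters and says nothing about a bound factor.

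The libraries differed by little for most of these genes. On log2(TPM + 0.1), a scale that understates the change of low genes, 1 of the 57 genes whose mean was at least 1 TPM was higher by over 1.5-fold in replicate 1, beside 2% of protein-coding genes. That gene was Unc5a, with a log2 ratio of 0.81 for replicate 1 over replicate 2, from 143 and 70 counts. The log2 ratio of its counts was 0.98 with an exact 95% binomial interval (Clopper-Pearson) of 0.55 to 1.41, which covers counting error only. With posterior mean TPM in place of TPM it was not past 1.5-fold, and no gene was. Its deposited credibility intervals overlapped, from 1.59 to 2.74 TPM in replicate 1 and from 0.90 to 2.24 TPM in replicate 2.

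Lower by over 1.5-fold in replicate 1 were 4 of 57 genes, beside 2.06% of protein-coding genes. Sema4c, a ligand of plexin-B2, had 1.5 TPM in replicate 1 and 3.07 TPM in replicate 2 (log2 ratio -0.99; of counts -0.66, interval -1.0 to -0.33). Sema4f had 0.83 and 1.68 TPM (log2 ratio -0.94; of counts -0.97, interval -1.39 to -0.56), and Unc5d 0.94 and 1.71 TPM (log2 ratio -0.80; of counts -0.83, interval -1.09 to -0.56). Each of these has 1 library on a side and no replicate check.

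Unc5c differed more in TPM than in counts. Its log2 ratio was -0.76 in TPM and -0.39 in counts (interval -0.48 to -0.30), from 1758 counts in replicate 1 and 2214 in replicate 2. Credibility intervals of its TPM did not overlap, from 8.79 to 10.8 TPM in replicate 1 and from 13.4 to 18.2 TPM in replicate 2. The deposited effective length of the gene was 8274 in replicate 1 and 6561 in replicate 2. The 357-nt transcript Unc5c-206 had 0 TPM in replicate 1 and 2.61 TPM in replicate 2, from 0 and 14.47 counts. Unc5c was not past 1.5-fold over protein-coding transcripts alone, where Epha4 was, nor on counts scaled by TMM, DESeq2 size factors or spike-in counts.

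Small differences ran mostly one way. Of the 57 genes, 48 (84.2%) were lower in replicate 1, beside 66.0% of protein-coding genes, and the median log2 ratio was -0.20, beside -0.07. With TMM factors the medians were -0.12 for the guidance genes and 0.01 for all protein-coding genes, with DESeq2 size factors -0.11 and 0.01, and with spike-in counts -0.18 and -0.05. Each of these scalings moves every gene of a library by the same amount, so the gap between the medians is fixed and is not tested by them. The 7 limb mesenchyme markers were all lower in replicate 1, with a median log2 ratio of -0.37, and the 6 muscle and 5 red blood cell markers were all higher, with medians of 0.41 and 0.57. The part of these cell types in the shift was not tested, nor was that of sex. The X-linked Efnb1 and Plxna3 had log2 ratios of -0.21 and -0.02.

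**Figure D4:**
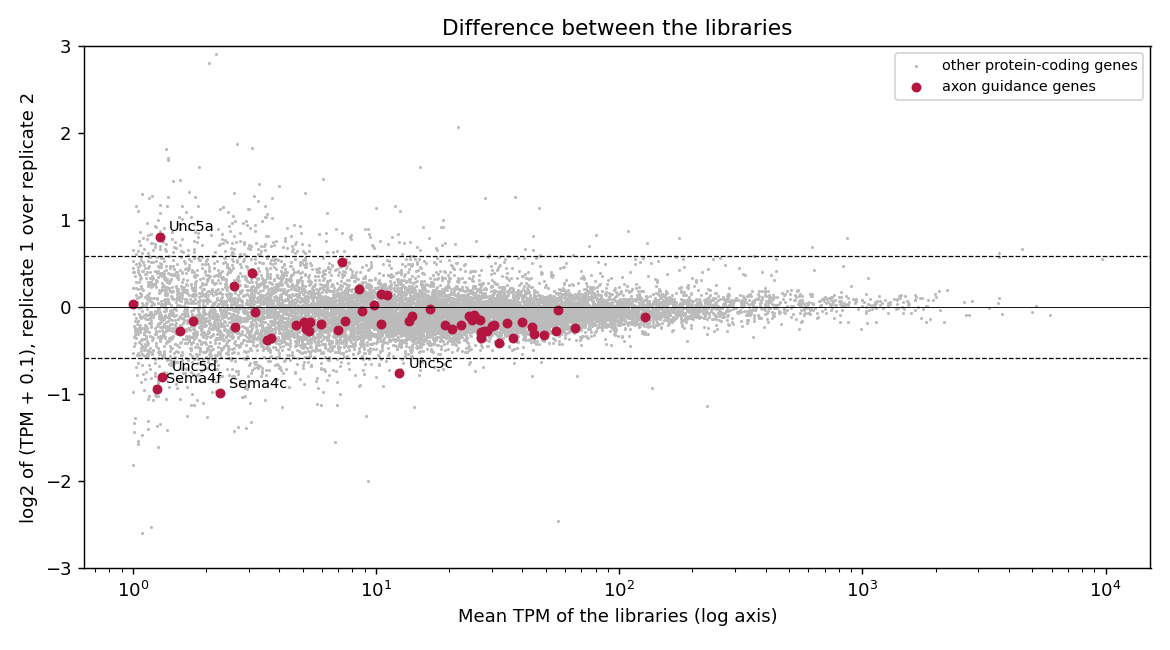
Log2 of TPM + 0.1 in replicate 1 over replicate 2 against mean TPM on a log axis, for the 13425 protein-coding genes whose mean was at least 1 TPM; red points are the guidance genes, grey points all others, and dashed lines mark 1.5-fold. The 5 labelled genes lie past the lines, and 11 genes lie outside the drawn range of 3 in either direction.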

How the data were processed

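Gene and transcript tables of 2 total RNA libraries were used. Reads were placed on mm10 with GENCODE M4, per the labels and per notes that accompany the tables; for aligner, quantifier and library strand nothing was given in the sources used. RNA was extracted with a mirVana kit and a Smart-seq protocol is named, per the labels. Per the file headers, expected counts deposited by the authors estimate the reads of a gene or transcript, can hold decimals, and were rounded here for intervals and scaling. TPM, as deposited, gives levels per length scaled to a common total that includes the spike-ins. Deposited FPKM values were left unused. Per the file headers, the authors also gave each transcript's percent of its gene's TPM, effective lengths, posterior mean TPM and credibility bounds (a score on the TPM scale, whose level no source used here states). Among the 2 libraries no column of another sample was present.

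Symbols, types and positions came from GENCODE M21 on GRCm38 by Ensembl identifier (42462 of 43346 matched). Of 323 transcripts of the 65 genes, 2 had no entry there. Ntn3 was not analysed here. Start windows came from RefSeq on GRCm38.p6. Protein identity between family members, which had been planned, was not computed. Detection required 1 TPM. Neighbours in an order were called apart where the values of the libraries did not overlap. Python 3.11.15 (numpy 2.4.6, pandas 2.3.3, scipy 1.17.1, matplotlib 3.10.9) and R 4.3.3 (edgeR 4.0.16 for TMM, DESeq2 1.42.0 for size factors) were used; neither R tool gave a test, because there is 1 group. Ratios between libraries used a pseudocount of 0.1 TPM. Intervals of count ratios cover counting error only, and leave out the spread between samples and the uncertainty of assigning reads. No molecular identifiers are recorded. The calculation was tested on simulated data.

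The genes and the lists were chosen with earlier results of these data known. Full values are given for the 2 highest genes of each family, all genes at 20 TPM or above, those past 1.5-fold and any at 0 in both libraries. The alternatives were other pseudocounts and TPM minimums, 3 scalings, posterior means, expected counts and families without their leading gene; that over protein-coding transcripts alone was chosen after seeing the data.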

Additional observations from a re-analysis of the deposited data

How the results depend on the processing

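Under every alternative tried, the number of genes detected and the leading transcripts moved by less than the replicate spread or within 1.5 times. So did the levels of the 24 genes at 20 TPM or above. Levels of the other genes were not checked in this way. Gene totals of Sema3b, Sema4a and Sema4d lay below their own credibility intervals in both libraries. Sema3b had 8.54 TPM against 8.64 to 11.7 TPM in replicate 1, and 5.94 TPM against 6.33 to 9.06 TPM in replicate 2. Genes detected numbered 58 with a minimum of 0.5 TPM and 40 with a minimum of 5 TPM, against 53 with 1 TPM. For levels the alternatives were posterior means and each library alone. With 2 libraries a single library always lies within the SD of the mean, so only the posterior means were a check. Posterior mean TPM of the 24 genes at 20 TPM or above lay between 0.975 and 1.05 times TPM. That statement on levels does not cover protein-coding transcripts alone, where Plxnb2 had a mean of 53.1 TPM. The count of genes higher in replicate 1 was 0 with a pseudocount of 1 TPM, 3 with no filter on low values, 0 with a minimum mean of 5 TPM and 0 with posterior means. The count lower in replicate 1 was 2 with a pseudocount of 1 TPM, 6 with no filter on low values and 1 with a minimum mean of 5 TPM. For the counts at these other settings no share over all protein-coding genes is given, so they are no result about the guidance genes.

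Family ratios changed with the length correction and with single genes; for the changes between TPM and protein-coding transcripts the cause was not tested. On expected counts, which favour long genes, the log2 ratios were -0.52 for ephrin-B over ephrin-A, 0.071 for EphB over EphA, -0.58 for ephrins over Eph receptors, 0.030 for Sema3 over Sema4 to Sema7, 1.07 for Robo over Slit, 0.082 for Robo1 over Robo2, 2.89 for Unc5 over netrin, 5.24 for Neo1 over Dcc and -0.0064 for plexin-A over plexin-B. Without the leading gene of each family they were -1.44 for ephrin-B over ephrin-A, -0.14 for EphB over EphA, 0.25 for ephrins over Eph receptors, 1.07 for Sema3 over Sema4 to Sema7, 0.42 for Robo over Slit and 2.01 for plexin-A over plexin-B. Over protein-coding transcripts alone they were 0.75 for EphB over EphA, 0.30 for ephrins over Eph receptors, 0.35 for Sema3 over Sema4 to Sema7, 1.28 for Robo over Slit, -0.19 for Robo1 over Robo2 and -0.42 for plexin-A over plexin-B. With posterior means they were 0.015 for ephrins over Eph receptors, 0.25 for Sema3 over Sema4 to Sema7 and 0.60 for Robo over Slit. The other 33 values of family ratios moved by less than the spread between replicates. They include the ratios of each library alone. With 2 libraries these always lie within the SD of the mean, so they test nothing.

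With 2 libraries of 1 group, no difference between conditions can be tested, and genes near 1 TPM rest on few counts, such as 45 of Ntn4 in replicate 1 and 53 in replicate 2.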
